A study of Homo sapiens with 9 samples.

Results

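The 3 mutant lines of Daoy cells were compared with their controls. Daoy is an established human medulloblastoma line, and medulloblastoma is a tumour of the cerebellum. The mutant lines are labelled as expressing FLAG-tagged DDX3X carrying G302V, R534H or P568L, 1 library for each. The control lines are the parental cells and the vector control cells, 1 library each. These 5 libraries were chosen by their titles out of 9 in the series. The other 4 came from 3 knockdown lines and from a line with wild type DDX3X. All 3 mutant lines, the wild type line and the knockdown lines shDDX3X_1 and shDDX3X_3 carry the same kind of inducible hairpin, which targets the 3' UTR of the endogenous DDX3X message. The hairpin of shDDX3X_2 targets the open reading frame (ORF). The labels give 1 treatment text for all libraries, doxycycline at 1 µg/ml for 72 h, and do not say whether the controls received it, nor which vector the vector cells carry. They describe the hairpin lines as polyclonal populations. No control is labelled as carrying a hairpin together with an empty expression vector. Effects of the mutant protein, the hairpin and the drug therefore cannot be told apart in mutant lines against controls. The labels do not say that the libraries of a group are separate cultures, so a p-value here measures the spread between the samples given. That spread may be technical. It also takes in differences between the 3 mutant constructs and, within the knockdown group, between the 3' UTR and ORF hairpins.

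DDX3X, on the X chromosome, encodes a DEAD-box RNA helicase that uses ATP to separate short RNA duplexes and helps ribosomes start on messages with structured leaders. Missense mutations of it recur in medulloblastoma and gather in the 2 RecA-like domains of the helicase core. The glycine replaced in G302V lies in the first of these domains, and the residues replaced in R534H and P568L lie in the second, where the arginine of R534H belongs to helicase motif VI. The reference codons at the labelled residues are shown to place each change, read from a GENCODE v29 transcript of the gene (GRCh38) with the codon in capitals.
G302V: tgcgtggtttatGGTggtgccgatatt
R534H: ggtcgtacgggaCGTgtaggaaacctt
P568L: aaacaagaagtgCCGtcttggttagaa
In each codon exactly 1 single-base change gives the labelled residue, GTT for the valine of G302V, CAT for the histidine of R534H and CTG for the leucine of P568L. The codon used in each expression construct is not given in the sources used here.

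DDX3X itself was lower in every mutant line than in either control. Its level was 682 CPM in the parental and 452 CPM in the vector library, against 197 CPM in G302V, 211 CPM in R534H and 241 CPM in P568L. CPM are read counts scaled to library size by TMM, a normalization for composition. The mutant lines thus held 43.7%, 46.7% and 53.5% of the vector level, and the 2 sets of values did not overlap. The wild type line stood at 195 CPM, and the 3' UTR hairpin lines without a construct stood at 55% (shDDX3X_1) and 40.3% (shDDX3X_3) of the vector level. In edgeR's quasi-likelihood test over all genes the mutants differed from control by -1.21 on the log2 scale (SE 0.26, n = 3 and 2), with an adjusted p of 0.169, so DDX3X was not called, and over the alternatives that adjusted p ran from 1.34e-06 to 0.604. The exact two-sided permutation test on the 5 values gave p = 0.1, the smallest that 3 against 2 libraries allow. Gene counts pool reads of the endogenous message and of the construct, so the labelled re-expression could not be checked from them.

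Reads assigned to genes numbered 8216568 to 13030572 in the 5 libraries. The parental library stood apart. Over 11516 genes, the log level in that library relative to the gene's mean over the 9 libraries had a Spearman correlation with transcript GC content of -0.713, where the vector library had 0.381 and the mutant libraries -0.112 to 0.532. Its deposited number also lies outside the run of numbers that holds the vector and mutant libraries. Ratios to the vector library are therefore given first, and the parental library serves as a further check. Ratios were formed with 0.5 CPM added to both values, on the 11730 genes with a mean of at least 5 CPM over the 5 libraries.

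Few genes stood 2-fold or more from the vector library in the mutants, and some did so in all 3. At least 2-fold above vector were 148 genes in G302V (1.26% of 11730), 278 in R534H (2.37%) and 207 in P568L (1.76%). At least 2-fold below vector were 226 genes in G302V (1.93%), 320 in R534H (2.73%) and 374 in P568L (3.19%). Past 2-fold in the same direction in all 3 mutants were 72 raised genes (0.614%) and 118 lowered genes (1.01%). The 3 ratios share the vector library, so its own value enters all of them and these counts are a description. For comparison, the parental library stood at least 2-fold above vector in 375 genes (3.2%) and below it in 1708 (14.6%). Requiring that all 3 mutants also lie at least 2-fold from the parental library left 43 raised genes (0.367%) and 51 lowered genes (0.435%), and the following paragraphs describe these. Dropping a line from the requirement enlarges such counts: without G302V they were 123 raised and 216 lowered against vector and 72 and 93 against both controls, and without P568L 71 were raised against both. With the GC trend removed 84 genes were lowered against both. Among raised genes, the smallest of the 3 log2 ratios to vector was 1.000 for SQSTM1, just inside the 2-fold line, and 0.997 for PRICKLE1, just outside it. Among lowered genes TGFA lay just outside the line, at 0.999 in size.

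Of the genes tested jointly against both controls in edgeR, 3 of 16155 fell in the mutants at an adjusted p under 0.05 (0.0186%), and these were IGFBP3, TNS4 and COLEC12. None rose (0%), although 998 genes (6.18%) were higher and 925 (5.73%) lower at an unadjusted p under 0.05. DESeq2 called 82 raised and 81 lowered genes, and edgeR after removal of each library's GC trend called 8 raised and 16 lowered. The count of called genes rested on single libraries: it was 67 without the parental, 781 without the vector, 54 without the ORF hairpin and 68 without the shDDX3X_3 library. The 3 genes were lower in every mutant line than in either control, and all 3 belong to the changes shared against both controls.

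IGFBP3, which encodes a secreted carrier of insulin-like growth factors, was at 364 CPM in the parental and 299 CPM in the vector library and at 49.5, 56.2 and 61.3 CPM in G302V, R534H and P568L. The vector level was 6.05 times that of G302V (95% interval for counting error only, 5.45 to 6.72), 5.32 times that of R534H (4.85 to 5.85) and 4.88 times that of P568L (4.51 to 5.28). The mutants formed a narrow group far below both controls. In edgeR the log2 difference was -2.38 (SE 0.23, adjusted p = 0.0121, n = 3 and 2), and the wild type line lay between them at 116 CPM.

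TNS4, an adaptor protein of focal adhesions, was at 10.9 and 13.6 CPM in the controls and at 0.603, 0.949 and 0.537 CPM in the mutants. Those mutant values rest on 5, 9 and 7 counts against 138 in the vector library, so the vector excess has wide intervals: 22.5 times G302V (9.42 to 70.4), 14.3 times R534H (7.32 to 32) and 25.3 times P568L (12 to 64.1). It had the largest fitted change of the called genes, -4.19 (SE 0.41, edgeR adjusted p = 0.0121). COLEC12, a scavenger receptor with a collectin-type domain, was at 20.4 and 12.6 CPM in the controls and at 1.81, 2.00 and 1.53 CPM in the mutants. The edgeR difference was -3.08 (SE 0.35, adjusted p = 0.0328), and again no mutant value reached a control value. In edgeR fits without any 1 of the 3 mutant libraries, 0 genes were called and the adjusted p of these 3 genes reached 0.381, while their log2 differences stayed between -4.47 and -2.25 over the alternatives run.

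The other lowered genes shared by the mutants were not called in edgeR. ARPP19, whose phosphorylated form restrains a protein phosphatase at entry into mitosis, was at 620 and 410 CPM in the controls and at 132, 136 and 175 CPM in the mutants (edgeR adjusted p = 0.0676). CRISPLD2, a secreted glycoprotein, was at 27.9 and 13.2 CPM against 3.98, 3.27 and 2.91 CPM (adjusted p = 0.0505). CSMD2, a large membrane protein with CUB and sushi domains, was at 13.1 and 30.6 CPM against 1.33, 0.738 and 0.460 CPM, resting on 11, 7 and 6 counts in the mutants (adjusted p = 0.0875). The rule that chose these genes placed their mutant values below both controls.

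PARVG, the parvin of the integrin-linked kinase complex in blood cells, was at 11.6 and 16.7 CPM in the controls and 1.81, 2.32 and 1.53 CPM in the mutants. CCND3, a D-type cyclin that drives passage through G1, was at 50.9 and 82.6 CPM in the controls and 21.2, 19.0 and 20.3 CPM in the mutants. BGN, the matrix proteoglycan biglycan, was at 79.0 and 125 CPM against 25.5, 12.1 and 33.2 CPM. The adjusted p-values in edgeR were 0.0843 for PARVG, 0.294 for CCND3 and 0.412 for BGN, and the last 2 also spread widely among the knockdown lines, as described below. PENK, the precursor of enkephalin peptides, had 124 counts in the vector library and 4, 2 and 10 counts in the mutants. TP63, a p53-family transcription factor of basal epithelia, was at 18.6 and 23.4 CPM against 7.24, 4.64 and 5.14 CPM (adjusted p = 0.0875). PAX9, a developmental transcription factor, was at 123 and 147 CPM against 57.5, 37.1 and 44.4 CPM (adjusted p = 0.0755). KDELR3, a receptor that returns resident proteins to the endoplasmic reticulum, was at 24.9 and 18.2 CPM against 5.19, 5.69 and 4.52 CPM (adjusted p = 0.0755). RNASE1, a secreted ribonuclease, was at 12.9 and 7.58 CPM against 1.69, 2.00 and 1.30 CPM (adjusted p = 0.0843). SULF1, a sulfatase that trims heparan sulfate at the cell surface, was at 57.0 and 66.1 CPM against 24.9, 27.7 and 22.7 CPM. The rule above admitted all of these genes, so their mutant values lay below both controls by choice.

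Among the shared raised genes MME stood out by size. It encodes neprilysin, a membrane metallopeptidase that cleaves small peptides, and it was at 9.18 and 7.67 CPM in the controls and at 60.7, 68.6 and 127 CPM in G302V, R534H and P568L. These are 7.91 (6.22 to 10.2), 8.94 (7.06 to 11.5) and 16.6 (13.2 to 21.1) times the vector level, with counting intervals in brackets. The edgeR difference was 3.02 (SE 0.52, adjusted p = 0.0942), so it was not called, and P568L stood above the other 2 mutants. HMGA2, a chromatin protein of embryonic and tumour cells that bends AT-rich DNA, was at 153 and 198 CPM against 473, 521 and 452 CPM (adjusted p = 0.0755). ANKRD52, a regulatory subunit of protein phosphatase 6, was at 133 and 188 CPM against 427, 485 and 407 CPM (adjusted p = 0.0676). For both genes the mutant values varied little among themselves.

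The set also held 3 genes of the matrix protease list, ADAM12, ADAMTS9 and ADAM19, the last of which is described with that list. ADAM12, a membrane-bound metalloprotease, was at 65.7 and 67.2 CPM in the controls and 166 to 184 CPM in the mutants, and ADAMTS9, a secreted proteoglycan-cleaving enzyme, at 6.22 and 4.53 CPM against 17.3, 30 and 28.2 CPM (edgeR adjusted p = 0.0755 for each). AFF2, a nuclear protein linked to X-chromosomal intellectual disability, was at 2.33 and 2.85 CPM against 18.9, 13.8 and 22.9 CPM (adjusted p = 0.0942). PAQR3, a Golgi protein that holds RAF kinase there, was at 20.8 and 22.1 CPM against 53, 60.8 and 67.3 CPM (adjusted p = 0.0676). By the rule that chose them, all mutant values of these 4 genes lay above both controls. The carbonic anhydrase genes CA2 and CA3 were both in the set, CA2 at 2.18 and 4.82 CPM against 17.5, 20.6 and 17.6 CPM and CA3 at 2.57 and 1.67 CPM against 9.53, 19.0 and 9.04 CPM. ADGRG1, an adhesion G protein-coupled receptor, was at 19.4 and 32.7 CPM and lay 1.85, 2.43 and 1.57 above vector on the log2 scale, with R534H highest. PCDHGA7 was also in the set, but the clustered protocadherins share exons and its counts are uncertain.

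The lines without a mutant construct were read at the same genes. They share the vector library with the comparisons above: the wild type line stood at least 2-fold above vector in 122 genes (1.04%) and below it in 107 (0.912%), and shDDX3X_3 in 194 (1.65%) and 321 (2.74%). The rule had placed all 3 mutants far from the controls, so their places are a description. For the 51 lowered genes the wild type line lay between the mutants and the nearer control in 43, inside the range of the mutants in 7 and at or past a control in 1. For the 43 raised genes it lay between in 27 and inside the mutant range in 16. IGFBP3 at 116 CPM and CCND3 at 44.0 CPM were between, and HMGA2 at 459 CPM was inside the range. The 3' UTR hairpin line shDDX3X_3, which carries no construct, lay inside the mutant range or beyond it in 29 of the 51 lowered genes and in 25 of the 43 raised genes.

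The ORF hairpin line was closer to the controls than shDDX3X_1 at many of these genes, but not at all of them. It lay at or past the nearer control in 17 of the 51 lowered and in 22 of the 43 raised genes, against 6 and 8 for shDDX3X_1. These 2 lines have neighbouring deposited numbers, carry different hairpins and were not used to choose the genes, so their ratio gives a reading apart from the controls. The log2 ratio of shDDX3X_1 over shDDX3X_2 had a median of -0.76 over the lowered genes, 0.52 over the raised genes and 0.01 over all 11730 genes. With the GC trend removed the first 2 medians were -0.80 and 0.48. At least 2-fold lower with the 3' UTR hairpin were 23 of the 51 lowered genes (45.1%), against 1.81% of all genes, and at least 2-fold higher were 10 of the 43 raised genes (23.3%), against 1.85%. CCND3 was at 22.1 CPM in shDDX3X_1 and 23.0 CPM in shDDX3X_3, both near the mutants, and at 82.0 CPM in shDDX3X_2, near the vector value. BGN showed the same order with 26.1, 12.3 and 136 CPM, and so did ATP5MD, a small subunit of ATP synthase, with 11.1, 14.6 and 46.7 CPM against 10.1 to 12.1 CPM in the mutants and 39.5 CPM in the vector library. All 3 mutant lines carry the 3' UTR hairpin, so for such genes the hairpin and the mutant protein cannot be told apart, and the DDX3X level of the ORF line, 139 CPM, was below that of both 3' UTR lines. With 1 ORF library the difference between hairpins has no replicate check. Other shared lowered genes, picked after their values were seen, were low with either hairpin and no construct. In shDDX3X_1, shDDX3X_2 and shDDX3X_3, TNS4 was at 0.826, 1.25 and 0.944 CPM and COLEC12 at 2.56, 2.84 and 3.18 CPM. TP63 was at 3.3, 2.43 and 2.48 CPM and SULF1 at 5.87, 9.45 and 4.25 CPM, below every mutant value. IGFBP3 was at 80.1, 134 and 78 CPM, between the mutants and the controls.

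A few shared genes had another order, in which the lines with a construct stood apart from all 3 knockdown lines. They were picked after their values were seen, and no test was made. CRISPLD2 was at 26.4, 23.9 and 13.2 CPM in shDDX3X_1, shDDX3X_2 and shDDX3X_3, as in the controls, and at 6.51 CPM in the wild type line, nearer to the 2.91 to 3.98 CPM of the mutants. COL23A1, a membrane-bound collagen, was at 30.8, 9.78 and 10 CPM in the knockdown lines and 13.7 and 12.9 CPM in the controls, against 2.79 CPM in the wild type line and 2.17, 1.90 and 1.84 CPM in the mutants. MME was at 15.9, 8.86 and 25.9 CPM in the knockdown lines and 56.7 CPM in the wild type line, close to the lowest mutant. For these genes the wild type line stood with the mutant lines.

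**Figure D1:**
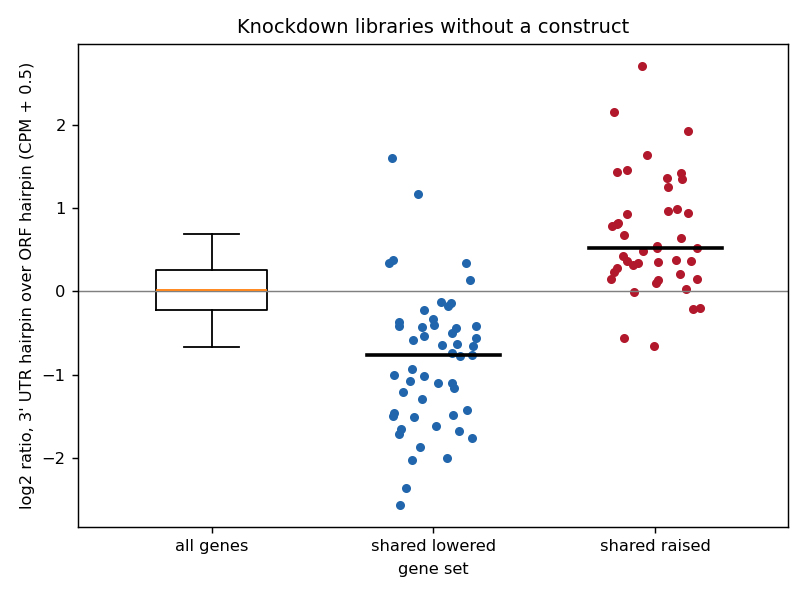
Log2 ratio of the 3' UTR hairpin line shDDX3X_1 over the ORF hairpin line shDDX3X_2 (CPM + 0.5) for all 11730 genes (box from the 25th to the 75th percentile, line at the median, whiskers at the 5th and 95th percentiles) and, as 1 point per gene with a bar at the median, for the 51 lowered and 43 raised genes shared by the mutants. The medians are -0.76 and 0.52 for the shared genes and 0.01 for all genes.

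Most genes of the G2/M list had lower values in the mutants than in the controls, and none passed the test. Of 39 G2/M genes tested, 37 had a negative fitted difference with a median of -0.45, against 7657 of 16155 and a median of 0.03 over all genes, with 0 called in edgeR and 17 lower at an unadjusted p under 0.05. In 32 of the 39 the 3 mutants all lay below both controls, where 17.5% of all genes did. Against vector alone 35 of the 39 were lower in all 3 mutants, where 31% of all genes were, and the medians were -0.54 in G302V, -0.56 in R534H and -0.26 in P568L. The parental library had a median of 0.33 above vector. The wild type line was at -0.56 and shDDX3X_3 at -0.26, so lower G2/M levels than in the vector library were not limited to the mutant lines. KIF2C, a kinesin that takes microtubules apart at centromeres, was at 215 and 184 CPM in the controls and 107, 102 and 115 CPM in the mutants. TOP2A, the topoisomerase that untangles sister chromatids, was at 1248 and 780 CPM against 389, 499 and 480 CPM. The mitotic kinesin KIF20A was at 236 and 187 CPM against 106, 87.1 and 128 CPM, and the checkpoint kinase TTK at 202 and 108 CPM against 67.7, 52.6 and 74.7 CPM. Their edgeR adjusted p-values were 0.139 to 0.219, with no mutant value inside the control range. AURKA and PLK4 were the 2 members with a positive difference, 0.01 and 0.09.

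Many mitotic promoters hold the element TTTGAA near the start site, known as the cell cycle genes homology region, through which complexes of the MuvB core repress them outside G2 and M. RefSeq promoter sequences (GRCh38.p14, 250 bases before to 50 after the start, both strands) were matched for 32 of the 39 genes. TTTGAA was present in 22 of the 32 (68.8%), in 1 of 35 S phase promoters (2.86%) and in 4212 of all 27305 (15.4%). The sequence CCAAT, which does not overlap it, was present in 25 of the 32 (78.1%), 20 of 35 (57.1%) and 9747 of all (35.7%). Stretches of 4 promoters show the element in capitals, the fourth at another distance from the start.
CCNB2, chr15:59105105-59105134, plus strand: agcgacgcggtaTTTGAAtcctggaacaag
PLK1, chr16:23678848-23678877, plus strand: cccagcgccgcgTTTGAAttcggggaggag
MKI67, chr10:128126435-128126464, minus strand: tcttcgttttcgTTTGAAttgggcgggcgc
CDC20, chr1:43358904-43358933, plus strand: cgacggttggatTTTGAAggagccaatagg
In the first 3 the element ends 23 bases before the start, and in CDC20 59 bases before it. CCNB2, the B-type cyclin, was at 141 and 112 CPM in the controls and 74.1, 89.4 and 100 CPM in the mutants. MKI67, the proliferation antigen Ki-67, was at 509 and 482 CPM against 379, 341 and 440 CPM, and CDC20, the activator of the anaphase-promoting complex, at 230 and 293 CPM against 200, 186 and 166 CPM. PLK1, a mitotic kinase, was at 105 and 171 CPM against 126, 134 and 135 CPM, so its mutants lay between the controls. A match of letters is a description and no evidence of binding.

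Genes of S phase also leaned low. Of 38 tested, 31 had a negative difference with a median of -0.30, 19 had all mutants below both controls (17.5% of all genes did), 27 were below vector in all 3 mutants (31% of all genes were) and none was called. TYMS, thymidylate synthase, had the largest difference, at 42.2 and 26.0 CPM in the controls and 8.32, 9.38 and 10.2 CPM in the mutants (log2 -1.31, edgeR adjusted p = 0.132). E2F1, a transcription factor that activates S phase genes, was on the other side, at 27.8 and 42.5 CPM against 68.4, 58.1 and 63.5 CPM (log2 0.62, adjusted p = 0.308).

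**Figure D2:**
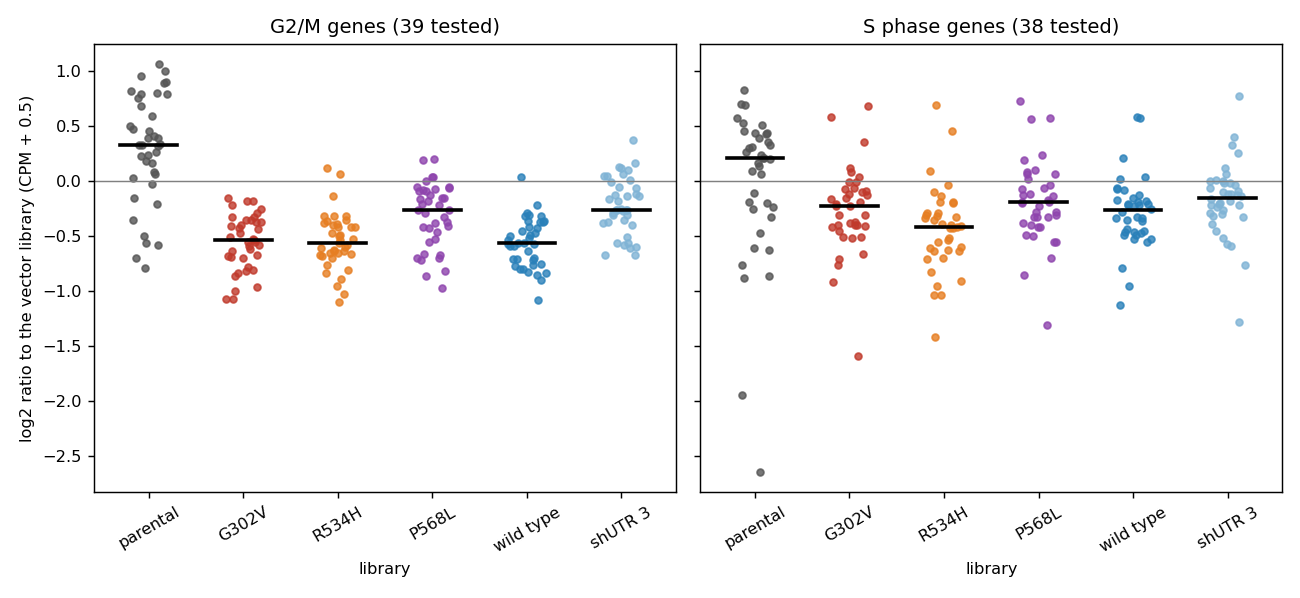
Log2 ratio to the vector library (CPM + 0.5) of each G2/M gene (left, 39 genes) and S phase gene (right, 38 genes) in 6 libraries, with 1 point per gene and a bar at the median. G2/M medians are -0.54, -0.56 and -0.26 in the mutants and 0.33 in the parental library, and the wild type line is as low as the lowest mutants.

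Matrix proteases and their inhibitors leaned the other way. Of 31 tested, 23 had a positive difference with a median of 0.46, 15 had all mutants above both controls (18.7% of all genes did) and none was called. PLAUR, the receptor of the protease urokinase, was at 30.5 and 88.6 CPM in the controls and 149, 195 and 165 CPM in the mutants, and its ligand PLAU at 69.0 and 121 CPM against 169, 212 and 214 CPM. ADAM19 was at 102 CPM in both controls and at 230, 359 and 226 CPM in the mutants. The gelatinase gene MMP2 was at 460 and 514 CPM against 827, 1126 and 868 CPM. TIMP3, an inhibitor of metalloproteases, had lower values in the mutants, 34.0, 52.3 and 27.5 CPM against 167 CPM in the vector library (log2 -1.85, edgeR adjusted p = 0.132). TIMP3 was named after its values were seen and is 1 member of the list. It is not among the genes lowered at least 2-fold against both controls, because at least 1 mutant lay less than 2-fold below the parental library. Its log2 value is fitted over both controls and is not a ratio to vector. The median of the list ran from 0.23, with the 6 libraries of the vector's number series, to 0.77, without the vector library.

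Collagen genes were mixed. Of 21 tested, 13 had a positive difference with a median of 0.32, and the medians against vector were 0.11 in G302V, 0.37 in R534H and -0.20 in P568L, while the parental library was at -0.87. The fitted median ran from 0.22 to 1.29 over the alternatives, highest without the vector library, and no collagen gene was called. COL7A1, the anchoring fibril collagen, was at 111 and 250 CPM in the controls and 546, 683 and 478 CPM in the mutants, and COL5A1 at 439 and 773 CPM against 1461, 1710 and 1229 CPM. COL6A3 was lower in each mutant, at 1660, 2248 and 1634 CPM against 3222 and 2564 CPM. COL1A2 was lower as well, at 707, 1116 and 842 CPM against 1904 and 1485 CPM.

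Lysosome and autophagy genes were slightly higher in all 3 mutants than in the vector library, with medians of 0.29, 0.35 and 0.31, and 22 of 30 were above vector in each mutant where 31.6% of all genes were. Over both controls 23 of 30 had a positive difference with a median of 0.20, but in the fit without the vector library the median was -0.02. None was called. SQSTM1, the autophagy receptor p62, was at 177 and 363 CPM in the controls and 727, 730 and 882 CPM in the mutants (edgeR adjusted p = 0.134). CTSD, a lysosomal aspartic protease, was at 76.9 and 379 CPM against 661, 680 and 481 CPM, and ULK1, the kinase that starts autophagy, at 14.9 and 105 CPM against 145, 164 and 136 CPM. At CTSD and ULK1 the controls differed more from each other, on the log2 scale, than the vector library did from the mutants.

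Epithelial genes had lower values than in the vector library, in the mutants and in the parental cells. Of 19 tested, 15 had a negative difference with a median of -0.63 and none was called. All 3 mutants lay below vector in 15 (31% of all genes did) but below both controls in 9 (17.5% of all genes did). The medians against vector were -0.61, -0.92 and -0.67 in the mutants and -0.79 in the parental library, and without the vector library the fitted median was 0.04. Beside TP63, KRT14, a keratin of basal epithelial cells, had 104 counts in the vector library and 5, 1 and 4 counts in the mutants. Its fitted difference from both controls ran from -4.96 to -1.91 over the alternatives. ESRP1, an epithelial splicing factor, was at 4.74 and 6.10 CPM in the controls and 0.965, 1.16 and 0.460 CPM in the mutants (edgeR adjusted p = 0.0942). Of the 19, 10 had the mean of at least 5 CPM over the 5 libraries that the shared set requires. Among those, only TP63 is among the genes lowered at least 2-fold against both controls. ESRP1 lay under that mean, so it is outside the set whatever its ratios. The list holds 31 genes, and those outside the 19 were too low to be tested in these libraries.

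Targets of NF-kB, a transcription factor of inflammation, had positive fitted differences in 28 of 29 with a median of 0.70, and none was called. Against vector alone they did not share a side, with medians of -0.19 in G302V, 0.64 in R534H and 0.30 in P568L, and 7 of 29 had all mutants above both controls, where 18.7% of all genes did. The fitted median ran from 0.33 to 1.66 over the alternatives, highest without the vector library. The parental library was at -0.64, below the vector library.

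Gene groups tied to the helicase's known roles had medians near that of all genes. Over 39 translation initiation factors the median difference was 0.01 with 20 positive, over 67 ribosomal protein genes -0.06 with 33 positive, and over 26 stress granule protein genes 0.01 with 14 positive, against 0.03 over all genes. Among 36 DEAD-box helicases, DDX3X included, the median was -0.03, with 13 below both controls in all mutants, where 17.5% of all genes were. Interferon-stimulated genes had 24 of 46 positive with a median of 0.05, which was -0.05 with the GC trend removed. BST2, an interferon-induced membrane protein, was at 8.71 and 13.4 CPM in the controls and 13.3, 13.8 and 9.43 CPM in the mutants, within or near the control range, and at 2.93 to 3.77 CPM in the 3 knockdown lines. None of these lists held a called gene.

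Pathways that define medulloblastoma subgroups were examined as well. Of 17 sonic hedgehog pathway genes 6 had a positive difference with a median of -0.35, and of 21 Wnt targets 8 did with a median of -0.13. Targets of p53 were near the level of all genes, with 12 of 22 positive and a median of 0.10. Of 26 YAP targets 17 were positive with a median of 0.15, and IGFBP3 was the 1 member called, in the lowered direction. Targets of the stress factor ATF4 had 11 of 29 positive (median -0.17), unfolded protein response genes 15 of 20 (0.17), hypoxia and glycolysis genes 19 of 28 (0.22) and cholesterol synthesis genes 16 of 24 (0.17). Over the alternatives the medians ran from -0.48 to -0.06 for the hedgehog list, -0.44 to 0.23 for Wnt, -0.24 to 0.14 for p53 and 0.02 to 0.66 for YAP. They ran from -0.32 to 0.24 for ATF4, -0.11 to 0.20 for cholesterol synthesis, 0.04 to 0.22 for the unfolded protein response and 0.10 to 0.27 for hypoxia and glycolysis. Of these the hedgehog, YAP, unfolded protein response and hypoxia lists held their sign throughout. Plain ratios were less uniform for the YAP and hedgehog lists. Against vector alone the YAP medians did not share a side, at -0.11 in G302V, 0.20 in R534H and -0.04 in P568L. The hedgehog medians in the same order were -0.04, -0.34 and -0.52 against vector, but 0.17, 0.27 and 0.00 against the parental library. Except for IGFBP3 no gene of the lists in this paragraph was called in edgeR.

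Of 28 neural stem and cerebellar lineage genes, which bear on the labelled origin of the line, 24 could be tested, 3 had no count in any of the 5 libraries, and the summed level was 485 to 546 CPM. Markers of blood cells were low. Of 14 haematopoietic markers 3 could be tested, 3 had no count in any of the 5 libraries, and their summed level was 4.64 to 6.99 CPM. The summed endothelial markers were at 63.9 and 82.4 CPM in the controls and 27.4 to 43.2 CPM in the mutants, led by TIE1. Of 13 neuronal markers tested, 6 had a positive and 7 a negative difference, with a median of -0.41 (-0.57 to 0.19 over the alternatives) and none called. They summed to at most 377 CPM, with the lowest and the highest of the mutant sums on either side of the vector sum, and MAP2, named after its values were seen and the 1 member of the list raised past 2-fold against both controls, was at 3.81 and 11 CPM in the controls and 39.3, 39.4 and 29 CPM in the mutants. The part of these markers in the results above was not tested.

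The 3 mutants also differed among themselves, with 1 library each and so no replicate check. G302V stood at least 2-fold above both other mutants in 47 genes (0.401% of 11730) and below both in 20 (0.171%). R534H did so in 16 (0.136%) and 11 (0.0938%), and P568L in 4 (0.0341%) and 16 (0.136%). In G302V the adhesion molecule NRCAM was at 28.1 CPM against 2.95 and 2.38 CPM in R534H and P568L, and FRMD3 at 15.4 CPM against 1.16 and 1.15 CPM. The controls had 13.1 and 11.2 CPM of FRMD3, near the G302V value, and 12.4 and 14.3 CPM of NRCAM, between G302V and the other mutants. ADAMTS2, a procollagen peptidase, was different, at 62.1 CPM in G302V against 1.27 and 7.36 CPM in the other mutants and 3.03 and 5.81 CPM in the controls. The chemokine gene CXCL8 was lowest in G302V, at 5.31 CPM against 30 and 17.6 CPM.

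R534H was set apart by high values of 2 secreted proteins. CHI3L1, a chitinase-like glycoprotein, was at 26.1 CPM against 5.91 CPM in G302V and 4.06 CPM in P568L, and DCN, the proteoglycan decorin, at 18.5 CPM against 3.02 and 4.45 CPM. Both were under 3 CPM in the controls. PRLR, the prolactin receptor, was lowest in R534H, at 1.79 CPM against 17.1 and 6.13 CPM. P568L had the highest TAGLN, a smooth muscle actin-binding protein, at 36.5 CPM against 12.5 and 11.5 CPM, and the highest ACTA2, smooth muscle actin, at 13.9 CPM against 3.86 and 5.59 CPM. For TAGLN the P568L value lay between the vector (22.7 CPM) and the parental value (41.9 CPM). ACTA2 in P568L was 2.78 times the vector level, but its fitted difference of mutants from controls ran from -2.29 to 0.67 over the alternatives. GAS7, a growth arrest gene of the actin cytoskeleton, was lowest in P568L, at 12.2 CPM against 45.1 and 36.3 CPM in the other mutants and 134 and 104 CPM in the controls, so that all 3 mutants were low and P568L more so.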

How the data were processed

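Poly(A) RNA was made into TruSeq version 2 libraries, a kit that does not mark strand, and read as single ends, per the labels' protocols. The deposited values are raw read counts per Ensembl gene, made by the authors. HISAT2, HTSeq, bcl2fastq and DESeq2, and the builds hg19 and GRCh37, stand in the submitters' processing notes without version or role. The 5 summary lines that end each table name no gene, held 20.31% to 35.79% of reads and were dropped. Symbols were matched for 90.5% of 57820 identifiers. In a library of this depth 0 counts allow a level of up to 0.230 to 0.365 CPM (3 counts, counting error only).

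edgeR 4.0.16 (R 4.3.3) was fitted to all 9 libraries with TMM scaling, robust quasi-likelihood, group and deposited number series (inferred from file numbers, tied to no run by a label) as terms, on 16155 genes with at least 1 CPM in 2 libraries. P-values were adjusted after Benjamini and Hochberg and called at 0.05. The series term draws on the knockdown libraries too, so fitted differences can depart from plain ratios. DESeq2 1.42.0 was an alternative. The fit was tested on simulated data. The parental and vector libraries differed from each other, and the mutant libraries among themselves, by more than sampling noise, so none was counted as a copy. These are different lines, and the knockdown libraries were not compared in this way.

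Named genes are the called ones, filled up to 12 per direction by smallest p among genes whose groups do not overlap, the 12 largest shared changes per direction among protein-coding genes, up to 4 per list, 4 per direction for each mutant, and 8 from an earlier account. AURKA, CCNB2, CDC20, COL1A2, COL6A3, E2F1, MAP2, MKI67, MMP2, PLAU, PLK1, PLK4 and TIMP3 were chosen after their values were seen. The libraries, genes and lists were chosen with earlier results of these data known.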

Additional observations from a re-analysis of the deposited data

How the results depend on the processing

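The number of genes called in mutants against controls (3, all lowered) was 658 (306 raised and 352 lowered) with no filter beyond 1 count, 1 lowered with a mean of at least 5 CPM or with only the 5 mutant and control libraries, 445 (163 and 282) with the 6 libraries of the vector's number series, 24 (8 and 16) with the GC trend removed and 163 (82 and 81) in DESeq2. Leaving out 1 library gave 0 to 781 called genes, 0 to 707 raised and 0 to 74 lowered. DDX3X was called at -1.22 without a filter, -1.06 with those 6 libraries, -1.22 in DESeq2 and -1.10 without the ORF hairpin library, and ranged from -1.57 to -1.06 with 1 library left out.

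Shared changes against vector (72 raised, 118 lowered) and against both controls (43 and 51) were 122, 272, 68 and 98 with a mean of at least 1 CPM, 28, 35, 18 and 18 with at least 20 CPM, 360, 384, 211 and 180 at 1.5-fold, and 13, 28, 9 and 12 at 3-fold. Adding 2 CPM left 47 raised against vector, removing the GC trend gave 84 lowered against both controls, and the parental library in place of vector gave 1434 raised and 360 lowered. Leaving out 1 mutant gave 81 to 123 raised and 142 to 216 lowered against vector, and 48 to 72 raised and 65 to 93 lowered against both.

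Against vector, G302V, R534H and P568L had 291, 461 and 370 genes above and 542, 697 and 832 below with a mean of at least 1 CPM, and 68, 137 and 91 above and 76, 100 and 108 below with at least 20 CPM. Against the other mutants they had 139, 44 and 17 above and 68, 38 and 40 below with at least 1 CPM, 9, 2 and 1 above and 4, 4 and 5 below with at least 20 CPM, and 11, 6 and 6 below with 2 CPM added. The cause of these shifts was not tested beyond the number of genes each setting admits. No result changed sign among called values. IGFBP3 and COLEC12 had negative differences in 18 of 18 alternatives, and TNS4 in the 17 that tested it. No paired analysis was possible because the mutant libraries carry no replicate number in the labels, so no replicate block could be fitted. Low genes rest on few counts and set the limit of depth.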
